A study of Homo sapiens with 6 samples.

Results

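The HIST1 cluster on the short arm of chromosome 6 is the largest group of replication-dependent histone genes in the human genome. Regions bound by the zinc-finger transcription factor ZIC2 were examined across its 3 gene-rich stretches in H1 (WA01), an established cell line of human embryonic stem cells. By position on hg19, the stretches run from 26010001 to 26290000 (280 kb), from 27090001 to 27120000 (30 kb) and from 27770001 to 27870000 (100 kb). All regions that overlapped a stretch by at least 1 bp were taken, which gave 13 of the 16077 different regions in the series. The 20 other regions between 25500001 and 28500000 on chromosome 6, in the 4 pieces between and around the stretches, served as the comparison.

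ZIC2 binding was profiled by CUT&Tag, in which an antibody brings a transposase to the bound protein so that it cuts and tags the DNA beside it. One group was wild-type H1 cells (WT, 2 anti-ZIC2 libraries). The other was H1 cells carrying a Cas9-made knockout of ZNF263, another zinc-finger DNA-binding protein, labelled a homogeneous KO (KO, 2 anti-ZIC2 libraries), and whether these cells came from 1 clone is not stated in the labels. One rabbit IgG library of each genotype was not analysed here. Each genotype is represented by 1 list of regions (12966 for WT and 7231 for KO) that gives only the chromosome, start and end. No value per library, height or read count is attached to a region, so the depth is unknown and no replicate error can be given. Absence from a list, worded below as not called, means only that the region is not in that list. The rule that put regions in each list is not stated, so absence says nothing of how much signal was there. The intervals given reflect counting error alone and take each region as separate from its neighbours, although adjacent regions can share signal.

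Replication-dependent histone genes encode the H2A, H2B, H3 and H4 proteins of the nucleosome core and the H1 linkers that bind the DNA between cores. They are short, mostly without introns, and are transcribed in S phase, when newly copied DNA is packed into chromatin. Their mRNAs end in a stem-loop rather than a poly(A) tail. Pluripotent stem cells have a short cell cycle in which S phase takes a large part, and ZIC2 is a ZIC-family factor present in pluripotent and early neural cells.

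RefSeq lists 53 protein-coding HIST1 genes in 3 runs, taken here in the order of the stretches. Ahead of the first run it lists another 2, H2AC1 and H2BC1, so the surroundings may hold histone genes as well. The first run has 32 genes (5 H1, 4 H2A, 8 H2B, 7 H3 and 8 H4), the second 5 (2 H2A, 2 H2B and 1 H4) and the third 16 (1 H1, 5 H2A, 4 H2B, 3 H3 and 3 H4). The first run opens with H1-1 and ends with H4C8, the second goes from H2BC11 to H2AC12, and the third from H2BC13 to H2BC17. Between the first and the second run the table has 84 genes, of which 47 are tRNA genes and 9 code for proteins. Between the second and the third run it has 77, of which 51 are tRNA genes and 5 code for proteins. These runs are from GRCh38.p14 and the regions from hg19, so the table was used for names and order only, and no ZIC2 region was tied to a single gene.

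Promoter sequences of 48 of the 53 genes were matched by gene, each with 250 bases before and 50 after the start (RefSeq, GRCh38.p14, chromosome 6). In these, 3 short motifs were searched on both strands. Histone promoters were counted by gene, with 52 promoter entries for the 48 genes, and all promoters by entry. No interval was computed for these shares, and differences between them were not tested. CAGCAGG, a core of the ZIC binding motif, was found in 2 of the 48 (4.17%), against 3688 of all 35116 promoters in the table (10.5%). GGGAGGA, a core of the ZNF263 motif, was found in 0 of the 48, against 18.1% of all promoters. TTTGCAT, the core of the octamer that OCT-family factors bind in H2B promoters, was found in 20 of the 48 (41.7%), against 4.46% of all promoters. It stood in 11 of 14 H2B, 8 of 10 H2A and 1 of 8 H3 promoters, and in 0 of 6 H1 and 0 of 10 H4. The H3 promoter, that of H3C4, holds the core in the same 60 bases, on the same strand and at the same distance from the start as that of H2AC7, so it is not a further occurrence. The H2A and H2B promoters are not independent either, because these genes often lie back to back. Of 11 neighbouring H2A and H2B pairs, 8 shared at least 100 bases of the same window on opposite strands.

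Both promoters with the ZIC core belong to H4 genes, which encode the most conserved core histone, and are shown with the core in capitals. H2BC11 and H2AC11 are shown as an example of a back-to-back pair, with the octamer core in capitals. Each line gives 60 bases around the core, 5′ to 3′ on the strand of the gene. These windows lie before the start but do not reach up to it. Only the letters were matched, and no deposited value shows whether ZIC2 or ZNF263 occupies them.
H4C5: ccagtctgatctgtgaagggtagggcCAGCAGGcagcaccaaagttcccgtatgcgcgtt
H4C9: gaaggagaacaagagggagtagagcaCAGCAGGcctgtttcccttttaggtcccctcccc
H2BC11: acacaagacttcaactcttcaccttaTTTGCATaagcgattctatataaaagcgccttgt
H2AC11: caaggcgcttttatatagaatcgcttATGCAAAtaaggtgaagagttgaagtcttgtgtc

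The H2BC11 and H2AC11 lines are the same stretch of DNA read from opposite strands, so the octamer core of one appears as its reverse complement in the other. In the H2BC11 promoter the core starts 46 bases before the start, and in the H2AC11 promoter 208 bases before it. H4C5 lies in the first run and H4C9 in the second, with the ZIC core starting 95 and 125 bases before the start, respectively.

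ZIC2 regions were called more densely in the histone stretches than in the DNA around them. The 13 regions lay in 0.41 Mb, or 31.7 per Mb (95% Poisson interval 16.9 to 54.2), against 20 in 2.59 Mb around them, or 7.72 per Mb (4.72 to 11.9). The ratio of these densities was 4.11 (95% exact interval 1.88 to 8.67). Chromosome 6 as a whole had 5.16 regions per Mb and all assembled chromosomes together 5.27, with lengths taken up to the last region and unsequenced gaps not removed. In covered length, the stretches had 9290 bp of regions per Mb and the surroundings 2734 bp. The density of genes differs between the stretches and the other DNA as well, and its part in the difference was not tested.

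Each stretch on its own had a higher density than each of the 4 pieces around them. The first had 8 regions (28.6 per Mb, 12.3 to 56.3), the second 2 (66.7 per Mb, 8.07 to 241) and the third 3 (30.0 per Mb, 6.19 to 87.7). The piece before the first stretch had 2 regions (3.92 per Mb). That between the first and the second had 7 (8.75 per Mb), that between the second and the third 6 (9.23 per Mb) and that after the third 5 (7.94 per Mb). The intervals of single stretches overlapped those of the pieces (up to 20.1 per Mb), so the order of single stretches and pieces is a description. When all chromosomes were cut into 10910 windows of 280 kb, the length of the first stretch, 270 windows (2.47%) held 8 regions or more, the median window held 1, and the fullest held 22.

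Both lists had more regions per Mb in the stretches than around them, though for KO not beyond counting error. WT had 11 regions in the stretches (26.8 per Mb, 13.4 to 48.0) and 18 in the surroundings (6.95 per Mb, 4.12 to 11.0), a ratio of 3.86 (1.65 to 8.63). KO had 4 regions in the stretches (9.76 per Mb, 2.66 to 25.0) and 7 in the surroundings (2.70 per Mb, 1.09 to 5.57), a ratio of 3.61 (0.775 to 14.2). The KO interval includes 1.

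**Figure D1:**
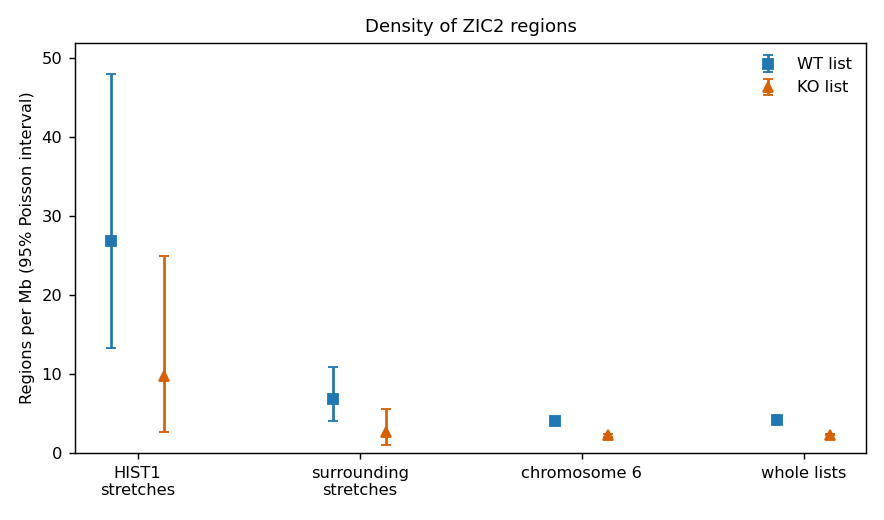
Regions per Mb (vertical axis) in the WT list (blue squares) and the KO list (orange triangles) for the HIST1 stretches, the surrounding stretches of chromosome 6, all of chromosome 6 and the whole lists, with 95% Poisson intervals as bars. The WT value for HIST1, 26.8 per Mb, lies above that of the surroundings, 6.95 per Mb, and the intervals do not overlap, whereas those of KO (9.76 and 2.70 per Mb) do.

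Most regions of the histone stretches were called in WT and not in KO. Of the 13 regions, 2 were in both lists, 9 in WT only and 2 in KO only, where the whole series had 25.6% in both lists, 55.0% in WT only and 19.4% in KO only. Among the 11 WT regions, 2 appeared in the KO list too (18.2%, exact Clopper-Pearson 95% interval 2.28 to 51.8). The share was 5 of 18 in the surroundings (27.8%, 9.69 to 53.5) and 31.8% over the whole WT list. Of the 4 KO regions, 2 were also in the WT list (50.0%, 6.76 to 93.2), against 5 of 7 in the surroundings (71.4%, 29.0 to 96.3) and 57.0% over the whole KO list. All these intervals include the whole-list share, so at this number of regions no difference of the stretches from the rest was detectable. KO regions numbered 36.4 per 100 WT regions in the stretches, 38.9 in the surroundings and 55.8 in the series. The first 2 of these ratios rest on few regions (4 against 11 and 7 against 18). They have no interval, and their difference from the series was not tested.

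**Figure D2:**
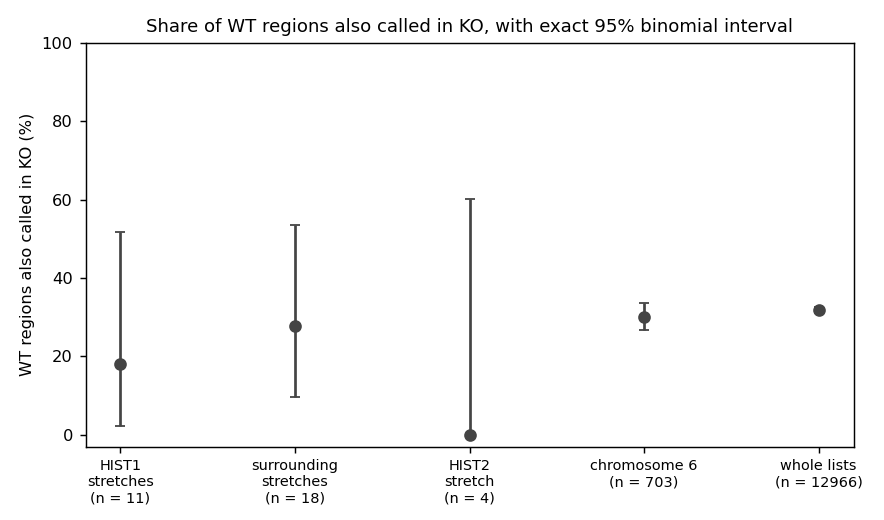
Percent of WT regions also called in KO (vertical axis) for the HIST1 stretches, their surroundings, the HIST2 stretch of chromosome 1, chromosome 6 and the whole list, with the number of WT regions under each name and exact 95% binomial intervals as bars. The HIST1 interval, from 2.28% to 51.8%, includes the whole-list share of 31.8%.

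The first stretch, whose run in the RefSeq table has genes of all 5 histone families, had 1 region in both lists, 6 in WT only and 1 in KO only. A group of 3 opened it within 6.32 kb. It consisted of the region in both lists, chr6:26026522-26026796 (275 bp), and 2 WT-only regions, chr6:26029019-26029278 (260 bp) and chr6:26032456-26032841 (386 bp). The gaps between them were 2222 bp and 3177 bp. Then 90.4 kb passed without a region, the longest empty run between regions of this stretch. It ended at the KO-only region chr6:26123200-26123353, which was 154 bp wide and lay 81314 bp from its nearest neighbour in either list.

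The second part of the first stretch had only WT regions, none of them called in KO. A region of 150 bp, the minimum width in the lists, lay at chr6:26204668-26204817. A close pair followed at chr6:26224026-26224175 (150 bp) and chr6:26224337-26224488 (152 bp), separated by 161 bp, the smallest gap in the 3 Mb. The last region of the stretch, chr6:26285642-26286187, was 546 bp wide. Only 6.97% of the 8846 WT-only regions of the series were as wide or wider. Few narrow WT regions were called in KO anywhere. Over the whole WT list the share was 0.399% at 150 bp, 12.8% from 151 to 200 bp and 55.6% from 401 to 600 bp.

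The second stretch, the shortest, whose run in the table has H2A, H2B and H4 genes, had 2 regions, both in WT only. The first of them, chr6:27100312-27100864, was 553 bp wide and the widest WT-only region of the 3 stretches, with 6.66% of all WT-only regions as wide or wider. The other, chr6:27114626-27114775, had the minimum width of 150 bp. The first of them was preceded by 504 kb without a region of either list, the longest empty run in the 3 Mb, which took in the start of the second stretch.

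The third stretch held 1 region of each class. The WT-only region chr6:27782587-27782809 was 223 bp wide. The region in both lists, chr6:27805802-27806461, was 660 bp wide and the widest of the 13, and 25.0% of all regions in both lists were as wide or wider. The KO-only region chr6:27832915-27833064 had the minimum width of 150 bp. The rest of the stretch, beyond this region, had no region in either list, and the next lay 215548 bp further on.

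**Figure D3:**
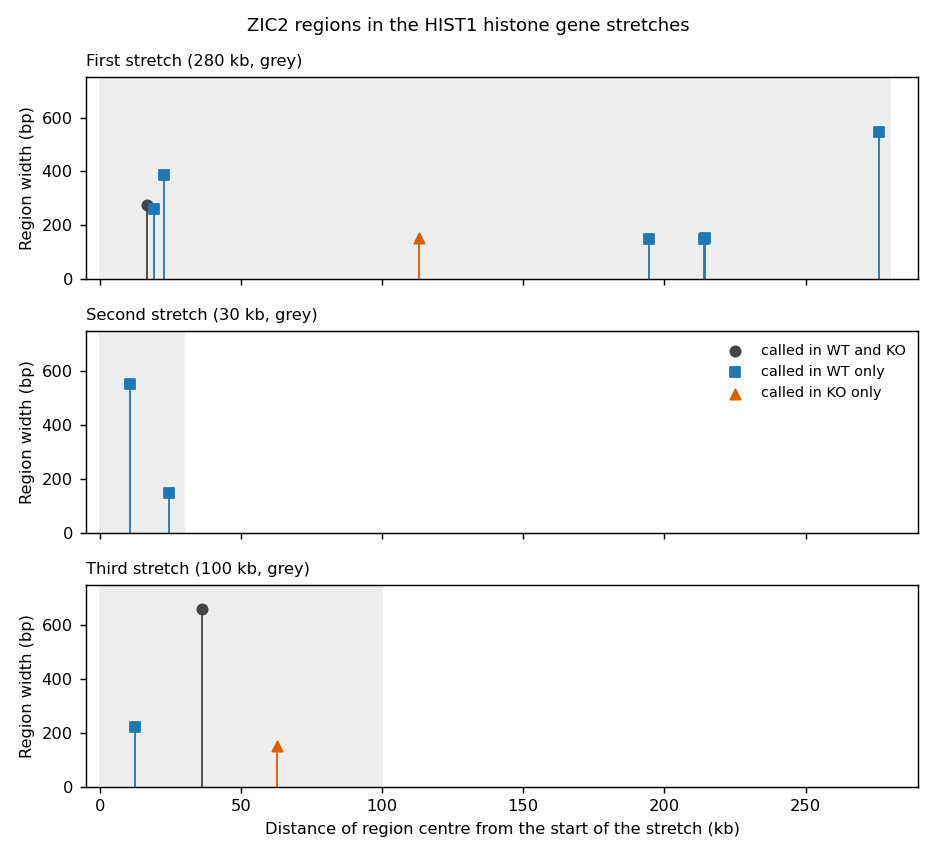
Width in bp (vertical axis) of each ZIC2 region against the distance of its centre from the start of its stretch in kb (horizontal axis), for the 3 HIST1 stretches (grey), with regions called in both lists (grey circles), in WT only (blue squares) and in KO only (orange triangles). The close pair in the first stretch, 161 bp apart, appears as 1 mark near 214 kb, and the widest region, 660 bp, is the circle in the third stretch.

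Both KO-only regions of the stretches were narrow, and so were some of the WT-only regions, which ran up to 553 bp. Over the series both classes ranged widely, KO-only regions from 150 to 1474 bp and WT-only regions from 150 to 1426 bp. Width is the only value the files give for a region, and it is common to both lists, since all 4120 regions in both lists had identical edges there. The 13 regions had a median width of 223 bp (150 to 660 bp), against 211.5 bp (150 to 1075 bp) for the 20 around them and 235 bp for all 16077. The 2 regions in both lists were 275 bp and 660 bp wide, where the median of such regions over the series was 460 bp. The 9 WT-only regions had a median of 223 bp (150 to 553 bp), against 154 bp (150 to 912 bp) for 13 in the surroundings and 181 bp over the series. The 2 KO-only regions, 150 bp and 154 bp, compare with 150 bp and 336 bp for the 2 in the surroundings and a median of 167 bp over the series. Minimum-width regions made up 4 of the 13 (30.8%), 7 of the 20 around them and 30.3% of the series.

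**Figure D4:**
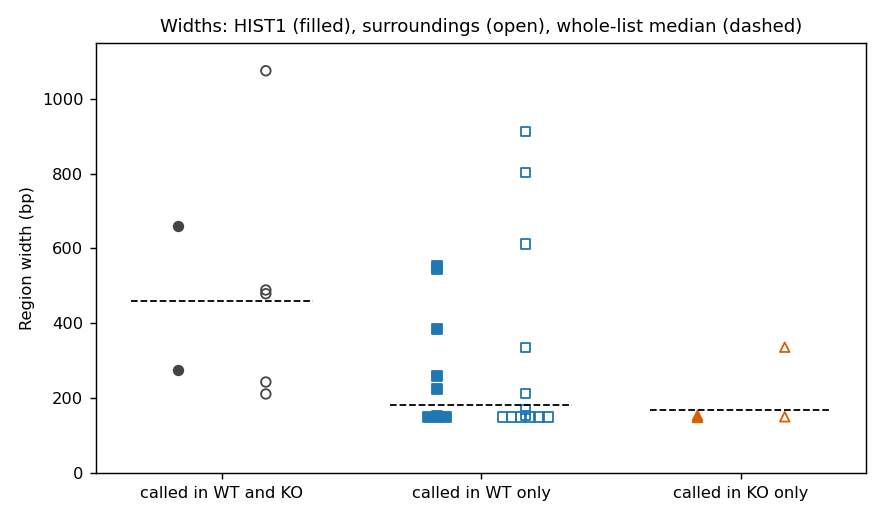
Width in bp (vertical axis) of every region in the HIST1 stretches (filled marks) and in the surroundings (open marks), by class, with the median of that class over the whole series as a dashed line. In the HIST1 stretches the KO-only marks lie at 150 bp and 154 bp and the WT-only marks between 150 bp and 553 bp, and the widest open marks, at 1075 bp and 912 bp, lie outside the HIST1 stretches.

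Not all wide regions were called in both lists. Of the 3 regions over 500 bp in the stretches, 2 were WT-only (546 bp and 553 bp) and 1 was in both lists. Regions over 500 bp were WT-only in 3 of 4 cases in the surroundings and in 811 of 2937 over the series. In the whole WT list, 55.6% of regions from 401 to 600 bp wide were in the KO list too. The count was 0 of 2 in the histone stretches and 2 of 2 in the surroundings. Adding up the whole-list shares at the widths of the 11 WT regions gives 3.31 regions also called in KO, where 2 were seen, and for the 18 WT regions of the surroundings 5.92, where 5 were seen. For KO regions the corresponding sums were 1.79 in the stretches, where 2 were seen, and 4.37 in the surroundings, where 5 were seen. Each of these counts differs from its sum by less than 2 regions.

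The close neighbours in the 3 Mb all lay in the first stretch. Of the 13 regions, 5 (38.5%) lay within 5 kb of another region (the group of 3 and the close pair), against 0 of 20 in the surroundings and 25.3% over the series. Members of a group count each other, no interval was computed, and the difference was not tested. The median gap to the nearest region was 13.8 kb in the stretches, 29.8 kb around them and 27.6 kb over the series. The 11 WT regions had 5 to 13 other WT regions within 500 kb (median 12), against a median of 7 over the whole WT list. Of the 5971 WT regions of the series with 5 to 13 such neighbours, 33.0% (31.8 to 34.2) were also called in KO, a share inside the interval of 2.28% to 51.8% for the stretches.

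The 3 widest regions of the 3 Mb lay outside the histone stretches. The region chr6:27218823-27219897, between the second and the third stretch, was 1075 bp wide and called in both lists. In the same piece, chr6:27440090-27441001 was 912 bp wide and called in WT only, and after the third stretch chr6:28303296-28304098, 803 bp wide, was WT-only too. The region just before the first stretch, chr6:25992716-25993327, was 612 bp wide and WT-only. Of the 5 regions after the third stretch, 3 were in both lists (489 bp, 479 bp and 243 bp), against 2 of the 15 in the other pieces. The exact 95% interval for 3 of 5, from 14.7% to 94.7%, includes the 25.6% of the whole series. So few regions cannot show that this piece differs.

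HIST2, a smaller histone gene cluster on chromosome 1, was compared as the locus most like HIST1. Its stretch, from 149750001 to 149870000 on hg19, held 4 regions (33.3 per Mb, 9.08 to 85.3), a density close to the 31.7 per Mb of HIST1. All 4 were WT-only, so 0 of 4 WT regions were called in KO (interval up to 60.2%). They were chr1:149783922-149784087 (166 bp), chr1:149857234-149857428 (195 bp), chr1:149858240-149858430 (191 bp) and chr1:149859493-149860152 (660 bp). HIST2 contains near-identical gene copies, where reads may not map to 1 place, and the gene content of both clusters' stretches was not checked on hg19.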

How the data were processed

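ZIC2 CUT&Tag was done in WT and ZNF263-KO H1 cells, with 2 libraries each. The deposited data are 2 peak lists, 1 per genotype, each with 3 columns (chromosome, start and end in bp). The submitters' processing notes name Bowtie2, Picard and the build hg19. Not given in the sources used here are the peak caller and its threshold, how replicates were combined, and whether the IgG libraries entered the calls. All regions found in both lists have the same edges in each, so width is 1 value common to both, and the class of a region depends on a selection rule that is not stated.

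Python 3.11.15 with pandas 2.3.3 read the lists, with intervals from scipy 1.17.1 and figures from matplotlib 3.10.9. Regions overlapping by at least 1 bp were counted as shared. Positions are hg19, counted from 1. Counts have exact Poisson intervals and shares exact Clopper-Pearson intervals (95%). The interval of a density ratio is exact, given the sum of both counts. With 1 list per genotype, no test over samples was possible and none was run. All regions in the stretches are named, and genes only by family and order, since the RefSeq tables are of another build. The HIST2 stretch was set from general knowledge of hg19. Routines were tested on simulated data. The members, stretches, gene lists and motifs were chosen with earlier results of these data known. The width sums, the neighbour counts, the 280 kb windows and the back-to-back promoter pairs were added after seeing the data.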

Additional observations from a re-analysis of the deposited data

How the results depend on the processing

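All 18 alternatives left their value inside the 95% interval of the value reported. Regions per Mb in the histone stretches ranged from 22.0 (regions wider than 150 bp) to 31.7 (midpoint inside the stretch). The surroundings ranged from 5.02 (wider than 150 bp) to 7.91 (stretches widened by 10 kb). With the first stretch only, the rest of the 3 Mb had 9.19 per Mb, but that rest takes in the other HIST1 stretches. The share of WT regions also called in KO ranged from 14.3% (first stretch only) to 25.0% (wider than 150 bp), and that of KO regions also called in WT from 50.0% to 66.7%. Median width ranged from 207 bp to 275 bp. For regions wider than 150 bp the median was below that of the surroundings (275 bp against 336 bp). Over all regions it was above (223 bp against 211.5 bp). The first stretch alone had a median of 207 bp, below the 212 bp of the 25 other regions in the 3 Mb. Those 25 include the regions of the other HIST1 stretches. These intervals are wide, so staying inside them says little about stability. Requiring 50% reciprocal overlap could not move a share, since shared regions have identical edges, and counting edges within 1 kb as shared left both shares at 18.2% and 50.0%. No paired analysis was possible because 1 list stands for both replicates of each genotype, which also prevented leaving out a replicate. The files hold 13 regions here and no read counts, so the signal at a region that was not called cannot be given.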
